A study of Mus musculus with 160 samples.

Results

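The Hox cluster genes are the homeobox genes of the HoxA, HoxB, HoxC and HoxD clusters. They were taken by name (Hox, a cluster letter from a to d and a paralogue number) and came to 39 of the 23420 rows of the table: 11 in HoxA, 10 in HoxB, 9 in HoxC and 9 in HoxD. In the mouse genome (GRCm38) HoxA lies on chromosome 6 (52155367 to 52260880), HoxB on chromosome 11 (96194316 to 96368254), HoxC on chromosome 15 (102921131 to 103036856) and HoxD on chromosome 2 (74668225 to 74765142).

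Single-cell RNA-seq was performed on 160 sorted cells of C57BL/6 background that were made in culture from pluripotent stem cells. The labels name embryonic or reprogrammed stem cells without saying which gave a cell, and the methods name the edited embryonic line iR9-ESC. This line carries a cassette in the Rosa26 locus in which doxycycline switches on Runx1 and Hoxa9 together, joined by a p2a sequence, and all 4 groups were cultured with doxycycline. The groups were 65 induced hematopoietic endothelial cells (iHECs, sorted as CD31+CD41lowCD45-c-kit+CD201high), 21 day-14 and 18 day-17 induced hematopoietic progenitor cells (iHPCs, CD45+ and free of lineage markers) and 56 day-21 iHPCs (Ter119-CD45+c-kit+CD127+). The iHPCs had spent 3, 6 and 10 days maturing on OP9-DL1, a stromal feeder line with a Notch ligand. Day and sort gate changed together from iHEC to day 14 and from day 17 to day 21, so their effects cannot be told apart there, while day 14 and day 17 shared a gate.

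No animal, culture or experiment is named for any cell, so each group was 1 sample. Differences between groups therefore have no replicate check and no test was run, and every SD is the spread between the cells of a group. Levels are in TPM, which is corrected for transcript length and scaled to one total in every cell. A gene was counted as detected above 1 TPM. TPM keeps no read counts, so sequencing depth is unknown and a gene listed at 0 is not shown to be silent. The number of genes above 1 TPM had a median of 4926 in iHECs and of 8200, 8101 and 6695.5 in the successive iHPC groups.

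The labelled cell types were compared with marker genes. Cdh5, which codes for VE-cadherin, was detected in 63 of 65 iHECs and in no iHPC, and Ptprc, which codes for CD45, in 1 of 65 iHECs. Among iHPCs, Ptprc was detected in 19 of 21 cells (day 14), 17 of 18 (day 17) and 55 of 56 (day 21). Some other markers separated the groups less. Of 6 endothelial markers, 2 were detected in at least 25% of cells at day 14 and day 17 and 1 at day 21. Pecam1 was detected in 17 of 21, 16 of 18 and 46 of 56 cells of these groups, and Esam in 15, 15 and 9. Of 5 blood markers, 2 reached 25% of iHECs, Laptm5 with 39 and Sfpi1 with 23 of 65 cells. Of 6 mast cell markers, 4 reached 25% of day-21 cells, compared with 1 in each other group. Their sum at day 21 ranged from 28.6 to 80878 TPM between cells, with a median of 1472 TPM. The paper describes a day-21 subpopulation with relatively abundant Gata2, so day-21 values here are taken over a mixed group. Of the 95 iHPC libraries, 3 went against their label, with Ptprc at 0, 0 and 0.275 TPM and a sum over 5 blood markers under 100 TPM. Day-14 cell 4 had a blood marker sum of 97.8 TPM and day-14 cell 17 one of 34.6 TPM, and both had all 5 pluripotency markers above 1 TPM, with sums of 8044 and 4721 TPM. Day-17 cell 9 had a blood marker sum of 10.998 TPM, 1 of 5 pluripotency markers and 3 of 6 stromal markers. In the remaining iHPCs the blood marker sum was at least 1818 TPM at day 14, 1139 TPM at day 17 and 698 TPM at day 21. The values of Hoxa9 and Hoxb2 and the counts of cells with other Hox genes are given with and without these 3 libraries.

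Hox proteins are transcription factors that bind DNA through a homeodomain, usually together with TALE cofactors of the Pbx and Meis families. In the embryo the genes of a cluster are switched on in the order in which they stand on the chromosome, low paralogue numbers first and toward the head, high numbers later and toward the tail. Trithorax proteins such as MLL keep active Hox genes on, and Polycomb complexes keep silent ones off. In blood, Hoxa9 is a regulator of stem and progenitor cells, Hoxb4 is known for expanding hematopoietic stem cells in culture, and Hoxb5 marks long-term repopulating stem cells in the bone marrow.

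Promoter sequences are shown for Hoxb4 and Hoxb8, which were detected in iHECs and in no iHPC, and for the endogenous Hoxa9 gene, whose TPM cannot be separated from that of the transgene. Each is the 250 bases before a RefSeq start site (GRCm38.p6), written 5′ to 3′ on the strand of the gene. Hoxb4 stands at chr11:96318017-96318266 on the plus strand, Hoxb8 at chr11:96281655-96281904 on the plus strand and Hoxa9 at chr6:52227371-52227620 on the minus strand. In GENCODE no transcript covers the Hoxb4 and Hoxb8 windows and the Hoxa9 window lies in an intron of longer Hoxa9 transcripts. In RefSeq the Hoxb4 window falls within the span of the Hoxb3 gene and the Hoxb8 window within that of Hoxb8, whose longer transcripts start upstream. Capitals mark matches to the motifs searched.
Hoxb4: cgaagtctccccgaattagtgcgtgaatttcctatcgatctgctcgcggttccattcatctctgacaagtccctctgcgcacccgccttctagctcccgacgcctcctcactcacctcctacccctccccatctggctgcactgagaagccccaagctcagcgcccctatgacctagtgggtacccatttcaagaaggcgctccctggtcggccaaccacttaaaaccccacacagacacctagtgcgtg
Hoxb8: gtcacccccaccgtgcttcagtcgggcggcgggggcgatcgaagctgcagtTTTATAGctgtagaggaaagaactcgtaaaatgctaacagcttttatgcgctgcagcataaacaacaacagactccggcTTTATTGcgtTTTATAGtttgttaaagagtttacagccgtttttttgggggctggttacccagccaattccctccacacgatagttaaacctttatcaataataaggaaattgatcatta
Hoxa9: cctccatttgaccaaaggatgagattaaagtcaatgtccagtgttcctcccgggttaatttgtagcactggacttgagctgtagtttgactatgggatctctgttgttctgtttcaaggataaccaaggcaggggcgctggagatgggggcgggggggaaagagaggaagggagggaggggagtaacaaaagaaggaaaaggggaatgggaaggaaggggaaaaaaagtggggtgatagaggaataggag

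The motifs were TATAAA, TGATTNAT for Hox with Pbx, TTTATNG for Cdx and posterior Hox proteins, TAATTA for the homeodomain core and TGTGGT for Runx, each on both strands. Of the 3 windows shown, only that of Hoxb8 held any of them. It had 2 matches to TATAAA and 3 to TTTATNG, and the TATAAA matches, which begin at bases 52 and 141, overlap TTTATNG matches. Of 32851 promoter windows of this length, 12.4% held TATAAA, 2.82% TGATTNAT, 9.81% TTTATNG, 4.84% TAATTA and 14.05% TGTGGT. Among 24 windows of 22 Hox genes with an entry, 4 held TATAAA, 2 each held TGATTNAT, TTTATNG and TAATTA, and 1 held TGTGGT. The Hox windows had a median of 12.5 CpG dinucleotides, compared with 6 over all windows. A match is a run of letters and not a bound site.

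iHECs expressed a broad but patchy set of Hox genes, and iHPCs expressed almost none besides Hoxa9. In iHECs 21 of the 39 genes were above 1 TPM in at least 1 cell: 10 of 11 in HoxA, 7 of 10 in HoxB, 0 of 9 in HoxC and 4 of 9 in HoxD. At day 14 there were 3 such genes, at day 17 there were 5 and at day 21 only Hoxa9. Counts over any cell depend on the number of cells, which was 65, 21, 18 and 56 in the order of groups. The share of all rows by the same rule is not reported here, so these counts have no background beside them. No HoxC gene was above 0 TPM in any cell of the table, and 0 of 65 iHECs allows a share of up to 4.62%. Such limits take 3 cells of the total and, like the Clopper-Pearson 95% intervals given here, cover counting error only.

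**Figure D1:**
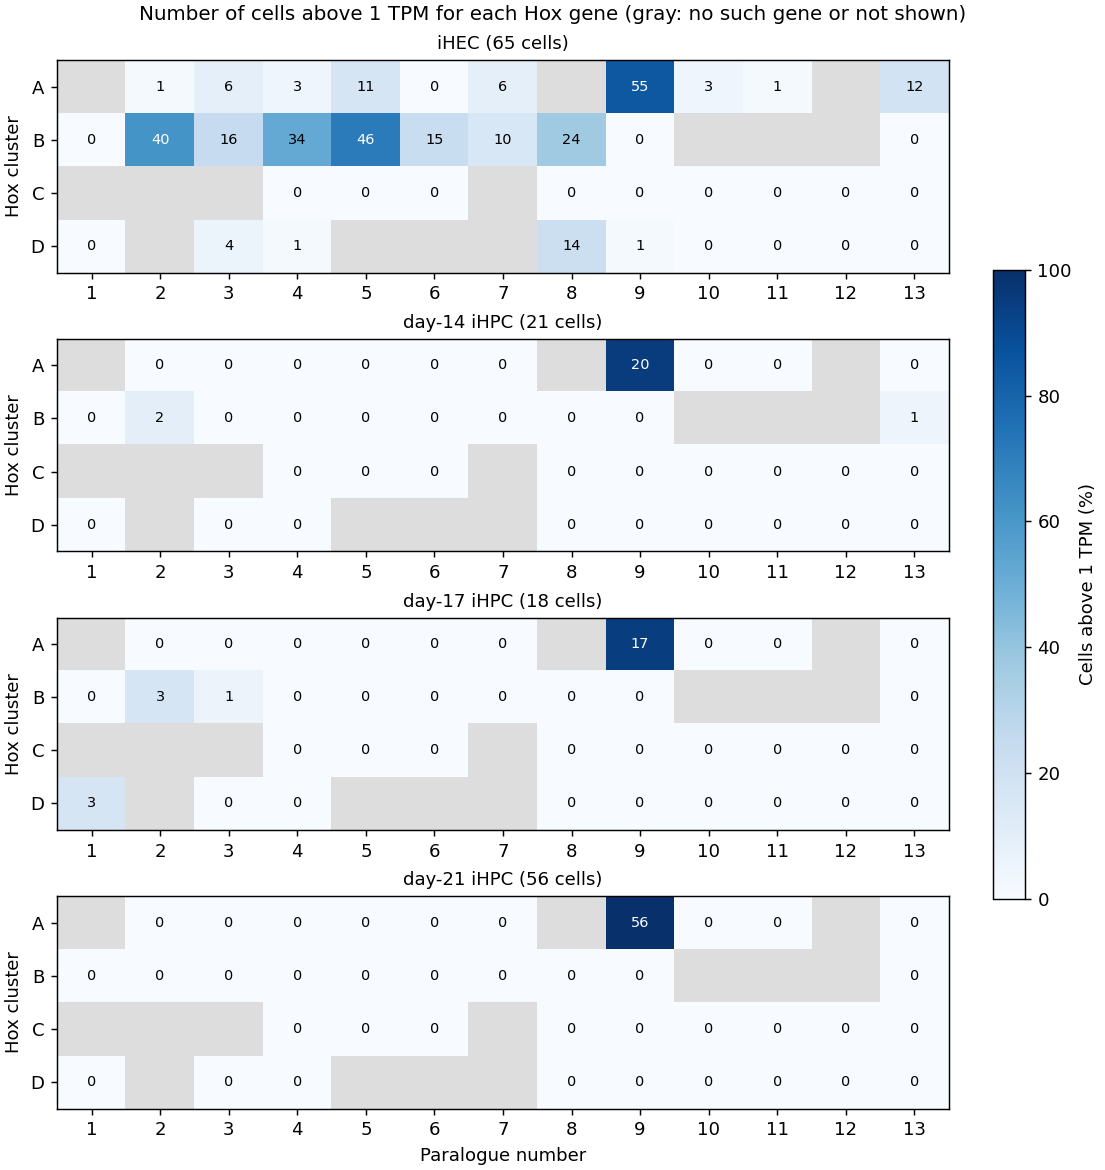
Number of cells above 1 TPM for each Hox gene, with clusters as rows and paralogue numbers as columns, in a panel for each group; the color gives the share of cells in percent and gray marks paralogues that do not exist or are not shown. In the iHEC panel the counts are highest for Hoxa9, Hoxb5, Hoxb2, Hoxb4 and Hoxb8. Hoxb7, with 10 cells, is below Hoxd8 with 14, Hoxa13 with 12 and Hoxa5 with 11. Hoxa9 stands nearly alone in the iHPC panels, with 20 of 21, 17 of 18 and 56 of 56 cells.

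Of the 39 genes, 5 were detected in at least 25% of iHECs, namely Hoxa9, Hoxb5, Hoxb2, Hoxb4 and Hoxb8. Hoxb5 was detected in 46 of 65 iHECs (70.8%, interval 58.2 to 81.4), with a median of 45.8 TPM over all iHECs, a lowest value of 0 and a highest of 378 TPM. It was listed at 0 in every one of the iHPCs, so the groups overlapped only where iHECs too were at 0. Its mean level on the log2(TPM + 1) scale was 4.38 ± 2.97 (SD between cells) in iHECs and 0 in each iHPC group, a difference of -4.38 from iHEC to day 14.

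Hoxb2, which takes part in patterning the hindbrain, was detected in 40 of 65 iHECs (61.5%, interval 48.6 to 73.3) with a median of 20.3 and a highest value of 223 TPM. It was the HoxB gene with most iHPCs, in 2 of 21 at day 14 and 3 of 18 at day 17, and was at 0 in all 56 at day 21. Its mean log2 level was 3.44 ± 3.02 in iHECs, and 0.30 ± 0.96, 0.84 ± 1.81 and 0 in the successive iHPC groups. Without the libraries that went against their label, the mean was 0.18 at day 14, with 5.26% of cells, and 0.52 at day 17, with 11.8% of cells.

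Hoxb4 was detected in 34 of 65 iHECs (52.3%, interval 39.5 to 64.9) with a median of 2.38 and a highest value of 127 TPM. In iHPCs it was above 0 in 1 day-14 cell (0.428 TPM) and 1 day-17 cell (0.317 TPM), both under the threshold. Hoxb8, which in culture can hold myeloid progenitors in a dividing state, was detected in 24 of 65 iHECs (36.9%, interval 25.3 to 49.8), with a highest value of 86.5 TPM and a median of 11.4 TPM among the cells with it. It was at 0 in all iHPCs. The mean log2 level from iHEC to day 14 differed by -2.26 for Hoxb4 and by -1.35 for Hoxb8.

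The remaining HoxB genes of iHECs were Hoxb3 in 16 cells, Hoxb6 in 15 and Hoxb7 in 10 of 65. Hoxb3 (24.6%) stood just under the 25% line. Hoxb1, Hoxb9 and Hoxb13, at the ends of the cluster, were detected in 0 of 65 iHECs. Along HoxB the shares therefore did not rise or fall steadily with the paralogue number. They were highest at Hoxb2, Hoxb4 and Hoxb5 and lower at Hoxb3, Hoxb6 and Hoxb7 between and beside them. Hoxb3 overlaps Hoxb4 on the same strand in the annotation, so the split of reads between these genes is uncertain under any strand setting. The same holds for Hoxa3 with Hoxa4, Hoxa5 and Hoxa6, for Hoxd3 with Hoxd4 and for Hoxd10 with Hoxd11.

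**Figure D2:**
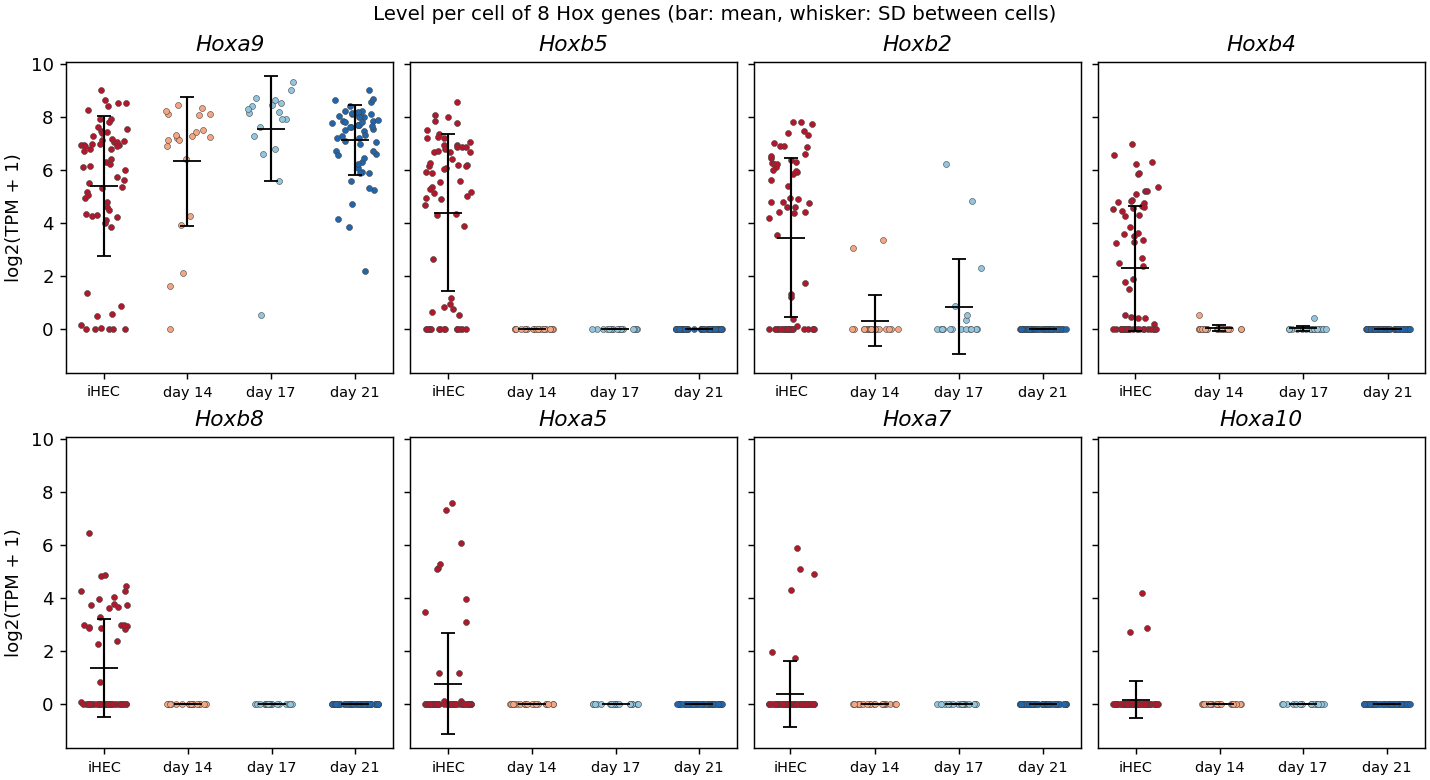
Level of 8 Hox genes in each cell as log2(TPM + 1), by group, each point a cell, with the mean and SD between cells as bar and whiskers. Hoxa9 is high in all 4 groups, while Hoxb5 goes from a mean of 4.38 in iHECs to 0 at day 14 and Hoxa5, Hoxa7 and Hoxa10 are above 1 TPM only in a few iHECs.

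HoxB genes were combined differently from one iHEC to the next. The number of HoxB genes above 1 TPM was 0 in 4 iHECs, 1 in 7, 2 in 21, 3 in 11, 4 in 12, 5 in 5 and 6 in 5. There were 31 different combinations, and 14 of them occurred in a single cell. The most frequent were Hoxb4 with Hoxb5 in 7 cells and Hoxb2, Hoxb5, Hoxb6 and Hoxb8 together in 5 cells. Hoxb5 was the highest Hox gene other than Hoxa9 in 31 iHECs, Hoxb2 in 16 and Hoxb4 in 5.

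All 15 iHECs with Hoxb6 also had Hoxb5, which is 32.6% of the 46 cells with Hoxb5, and 13 of the 15 had Hoxb8, which is 54.2% of the 24 cells with Hoxb8. Hoxb2 and Hoxb4, by contrast, were together in 19 cells, 47.5% of those with Hoxb2 and 55.9% of those with Hoxb4. Over the 21 pairs of Hoxb2 to Hoxb8, Spearman's rho across the 65 iHECs ranged from -0.25 (Hoxb4 with Hoxb7) to 0.48 (Hoxb6 with Hoxb8) with a median of 0.12. These cells share a culture and their libraries differ in the number of genes detected, so the values are a description.

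**Figure D3:**
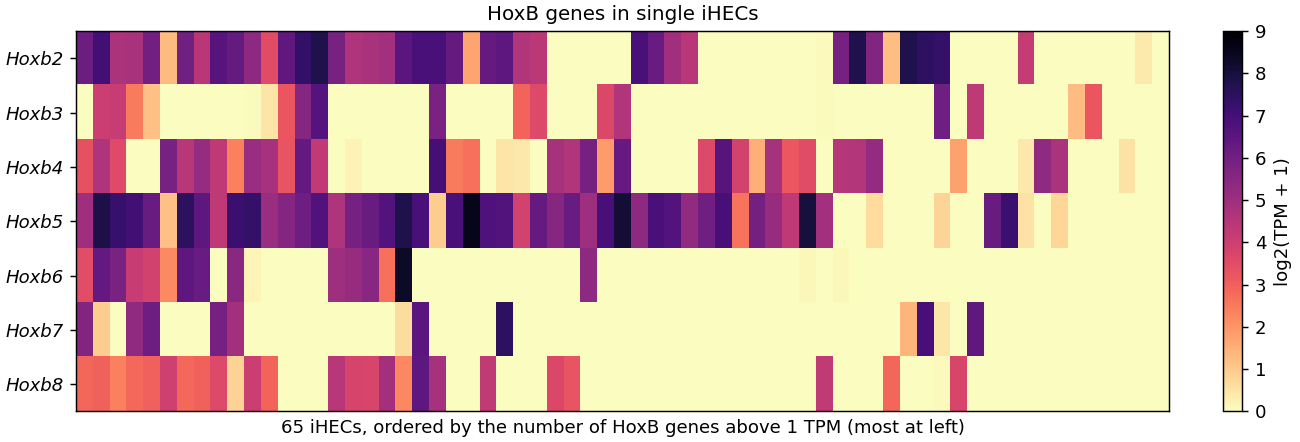
Level of Hoxb2 to Hoxb8 (rows) in each of the 65 iHECs (columns) as log2(TPM + 1), with darker colors for higher levels and cells ordered by how many of these genes are above 1 TPM. Hoxb5 is present in 46 columns and Hoxb6 in 15, all of which also hold Hoxb5.

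Sorted by paralogue number and without Hoxa9, anterior genes (1 to 4) were detected in 58 of 65 iHECs (89.2%, interval 79.1 to 95.6), central genes (5 to 8) in 54 (83.1%, interval 71.7 to 91.2) and posterior genes (9 to 13) in 15 (23.1%, interval 13.5 to 35.2). Paralogue group 5 was the most frequent with 46 cells, followed by group 2 with 40 and group 4 with 37. Their intervals overlap, and all were counted in the same 65 cells. Hoxa13, a gene of the limb and hindgut ends, was the most frequent posterior gene besides Hoxa9, with 12 of 65 iHECs and a highest value of 115 TPM. Groups 9, 10 and 11 without Hoxa9 were found in 1, 3 and 1 iHECs.

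HoxD was nearly limited to Hoxd8, detected in 14 of 65 iHECs (21.5%, interval 12.3 to 33.5) with a highest value of 203 TPM. Hoxd3 was detected in 4 iHECs, and Hoxd4 and Hoxd9 in 1 each. The iHECs with a HoxD gene numbered 19 of 65 (29.2%, interval 18.6 to 41.8). In HoxA, the genes other than Hoxa9 were found in 26 of 65 iHECs (40%, interval 28.04 to 52.9), fewer than the 61 of 65 with a HoxB gene (93.8%, interval 85.0 to 98.3). Both shares are of the same 65 cells from a single sample, so their intervals do not serve as a comparison between the clusters.

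Hoxa9 differed from its neighbors in HoxA. It was detected in 55 of 65 iHECs (84.6%, interval 73.5 to 92.4). Among iHPCs it was detected in 20 of 21 cells (day 14), 17 of 18 (day 17) and all 56 (day 21). Its lowest, median and highest values were 0, 72.8 and 516 TPM in iHECs, 0, 150 and 346 TPM at day 14, 0.422, 288 and 635 TPM at day 17 and 3.57, 192 and 524 TPM at day 21. The 4 groups overlapped over most of their range. The lowest day-17 value is that of cell 9, and without it all 17 day-17 cells had Hoxa9, with a lowest value of 46.7 TPM and a mean log2 level of 7.97 ± 0.95. Without cells 4 and 17, 18 of 19 day-14 cells had Hoxa9, with a mean of 6.48 ± 2.35. The 10 iHECs with Hoxa9 at or under 1 TPM had 3309 to 5109 genes above 1 TPM, and 8 of them had another Hox gene.

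Hoxa5, Hoxa7 and Hoxa10, the HoxA genes that the study screened beside Hoxa9, were detected in 11, 6 and 3 of 65 iHECs and listed at 0 in every iHPC. For the iHPCs this allows shares of up to 14.3% at day 14, 16.7% at day 17 and 5.36% at day 21. Their highest values in iHECs were 191, 58.5 and 17.4 TPM. Within a cell, log2(TPM + 1) of Hoxa9 exceeded that of Hoxa5 by 4.63 ± 3.48 in iHECs, that of Hoxa7 by 5.02 ± 2.78 and that of Hoxa10 by 5.24 ± 2.71. In iHPCs, where the neighbors were at 0, these differences equal the level of Hoxa9 itself, 6.32 ± 2.44, 7.56 ± 1.99 and 7.12 ± 1.32 in the order of days.

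Of the cells with Hoxa9, 16.4% of iHECs also had Hoxa5, 10.9% Hoxa7 and 5.45% Hoxa10. Conversely 9 of 11 iHECs with Hoxa5 had Hoxa9, as did 6 of 6 with Hoxa7 and 3 of 3 with Hoxa10. Hoxa6, which stands between Hoxa5 and Hoxa7, was in 0 of 65 iHECs. Hoxa9 was the highest Hox gene in 36 of 65 iHECs, Hoxb5 in 15 and Hoxb2 in 9. Hoxa9 made up 34.1% of the summed TPM of all Hox genes in iHECs, and 99.0%, 96.2% and 100% of it in the successive iHPC groups.

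Hoxa9 followed Runx1, the other gene of the cassette, from cell to cell. The median of Runx1 was 45.96 TPM in iHECs and 87.5, 199 and 137 TPM in the successive iHPC groups. Spearman's rho of Hoxa9 with Runx1 was 0.85 in iHECs and 0.92, 0.92 and 0.89 in the successive iHPC groups. Among the genes that passed 1 TPM in over 30 cells, Runx1 had the highest rho with Hoxa9 in each group and Hoxa9 the highest with Runx1. The next gene after Runx1 was Klf2 at 0.50 in iHECs, Col4a3bp at 0.81 at day 14, Sh2b3 at 0.90 at day 17 and Gnas at 0.65 at day 21. Without the 3 libraries that went against their label, rho with Runx1 was 0.91 at day 14 and 0.91 at day 17.

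In cells with both genes above 1 TPM the log2 ratio of Hoxa9 to Runx1 was 0.72 ± 1.27 in 54 iHECs. Among iHPCs it was 0.29 ± 1.04 in 19 cells at day 14, 0.49 ± 0.41 in 17 at day 17 and 0.13 ± 0.83 in 56 at day 21. The values of a pair of genes in a cell share a library and its scaling to one total, and rho is given as a description. The HoxB genes of iHECs had lower values with Hoxa9 than Runx1 had. In iHECs rho of Hoxa9 was -0.03 with Hoxb2, -0.09 with Hoxb4, 0.07 with Hoxb5 and 0.33 with Hoxb8.

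**Figure D4:**
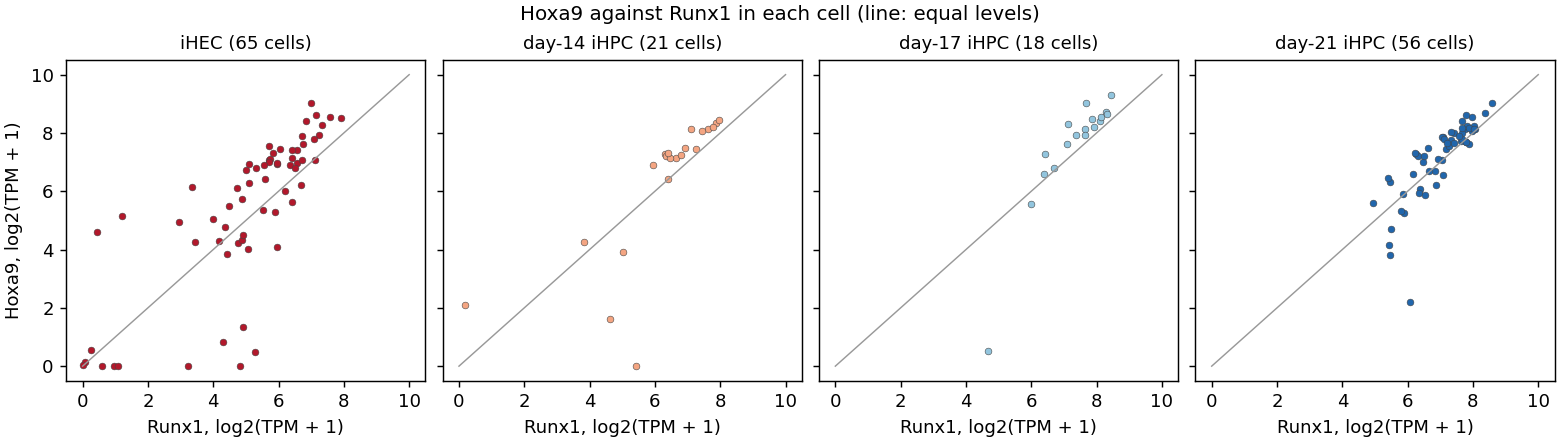
Hoxa9 against Runx1 in each cell as log2(TPM + 1), in a panel for each group, with a line at equal levels. Hoxa9 is higher where Runx1 is higher in all 4 panels, with Spearman's rho of 0.85, 0.92, 0.92 and 0.89 from left to right, and some cells lie far under the line, with Hoxa9 near 0 and Runx1 detected.

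Between consecutive groups a size rule was used, a difference in mean log2(TPM + 1) of more than 1. From iHEC to day 14, 5 of the 39 Hox genes (12.8%) were lower by more than 1, compared with 5.37% of all 23420 rows, and 0 were higher, compared with 20.6% of rows. The 5 genes were Hoxb5 (-4.38), Hoxb2 (-3.14), Hoxb4 (-2.26), Hoxb8 (-1.35) and Hoxb6 (-1.17), all in HoxB. Since 18 of the 39 genes were above 1 TPM in no iHEC, they could not be lower. The median difference was -0.03 over the 39 genes and 0 over all rows. Only 4 Hox genes, Hoxa9, Hoxb2, Hoxb4 and Hoxb5, exceeded 1 TPM in over 30 of the 160 cells. The median difference of the 9674 rows with that many cells was 0.93. Hoxb4 and Hoxb5 passed this filter through iHECs alone and Hoxb2 mainly through them, while Hoxb6 and Hoxb8 did not pass it. Their lower values therefore cannot be weighed against this median.

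The summed TPM of HoxB had a median of 137 in iHECs and 0 in each iHPC group, and on the log2(sum + 1) scale its mean was 6.47 ± 2.23 in iHECs and 0.52 ± 1.25 at day 14. HoxA without Hoxa9 had a mean of 2.01 ± 2.75 in iHECs and 0 at day 14. HoxD had 1.18 ± 2.12 in iHECs and 0.02 ± 0.08 at day 14. With Hoxa9 kept in the sum, HoxA differed by 0.31 in the other direction.

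Hoxa9 itself differed by 0.93 from iHEC to day 14, which is 0.01 relative to the median of the 9674 rows, and by 1.09 without the 2 day-14 libraries that went against their label. From day 14 to day 17 it was higher by 1.23 (0.96 relative to the median), and by 1.49 without the 3 libraries. It was the only Hox gene past the size rule there, 1 of 39 compared with 7.01% of all rows, and 0 were lower compared with 1.99%. With only cells of at least 4000 genes it was 0.91 and did not pass. From day 17 to day 21 the difference was -0.44, or 0.30 relative to the median, and 0 of 39 Hox genes passed in either direction, compared with 1.17% of rows higher and 16.8% lower. Hoxa9 did not differ by more than the SD between cells in any of these comparisons with all cells.

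Cells of the iHPC groups had fewer Hox genes but more genes in all. iHPCs at day 14 had more genes above 1 TPM than iHECs but a median of 0 Hox genes other than Hoxa9, compared with 4 (range 0 to 11) in iHECs. Such genes were found in 61 of 65 iHECs. The iHPCs with one numbered 3 of 21 at day 14 (14.3%, interval 3.05 to 36.3) and 3 of 18 at day 17 (16.7%, interval 3.58 to 41.4), and at day 21 there were 0 of 56 (limit 5.36%). Without the 3 libraries they were found in 10.5% and 11.8% of day-14 and day-17 iHPCs. Within iHECs, Spearman's rho between the number of these Hox genes and the number of all genes above 1 TPM was 0.41, so cells with more genes detected also had more Hox genes.

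**Figure D5:**
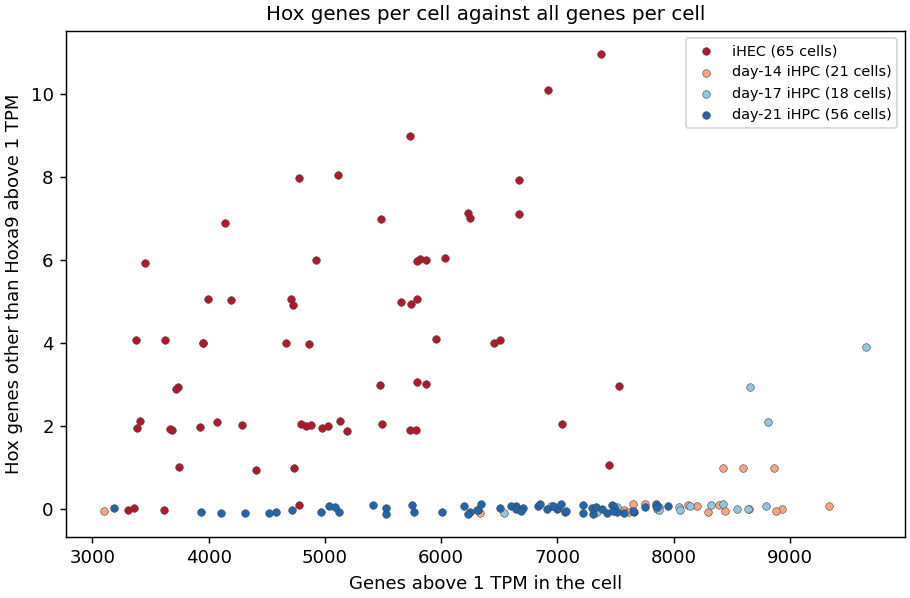
Number of Hox genes other than Hoxa9 above 1 TPM in each cell (vertical axis, points shifted slightly to show overlap) against the number of all genes above 1 TPM (horizontal axis), colored by group. The iHECs, with 3309 to 7533 genes above 1 TPM, have 0 to 11 of these Hox genes, and 6 of the 95 iHPCs have any.

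Of the 6 iHPCs with another Hox gene, the main genes were described cell by cell. At day 14, cell 5 had Hoxb13 at 15.5 TPM, and cells 17 and 18 had Hoxb2 at 7.23 and 9.25 TPM. Cell 17 is a library with pluripotency markers described above, while cells 5 and 18 had all 5 blood markers, with sums of 3273 and 2730 TPM. At day 17, cell 3 had Hoxb2 at 3.96 and Hoxd1 at 3.49 TPM. Cell 9 had Hoxb2 at 72.7 and Hoxd1 at 44.2 TPM. Cell 15 had Hoxb2 at 27.2, Hoxb3 at 1.51 and Hoxd1 at 28.96 TPM.

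Hoxd1, an anterior gene found in 0 of 65 iHECs, was thus found with Hoxb2 in all 3 of these day-17 cells. None of the 3 had a central gene. Cell 9, with Hoxa9 at 0.422 and Runx1 at 24.4 TPM, is the day-17 library with few blood markers. Cell 15 had all 5 blood markers, with the lowest sum (1139 TPM) of the other day-17 cells, 4 of 6 stromal markers and the most genes above 1 TPM (9658). Cell 3 had all 5 blood markers with a sum of 3312 TPM and 1 of 6 stromal markers. Over day-17 iHPCs the stromal sum ranged from 0 to 116 TPM with a median of 55.7. The part of feeder RNA or of a second cell in these values was not tested.

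The partners and regulators of Hox genes were read from lists. Among 9 TALE cofactors none passed the size rule from iHEC to day 14, compared with 20.6% of all rows higher and 5.37% lower. Meis1 was detected in 36 of 65 iHECs, 19 of 21 cells at day 14, 15 of 18 at day 17 and 39 of 56 at day 21. Its mean log2 level was 3.03 in iHECs and 3.47, 3.11 and 2.94 in the successive iHPC groups. Meis2 was detected in 16 of 65 iHECs but 0 of 21 cells at day 14, with a difference of -0.99. From day 14 to day 17 Pknox1 was higher by 1.13 and Pbx4 by 1.12, and from day 17 to day 21 Pknox1 differed by -1.78. The Cdx factors, which switch on central Hox genes in the embryo, were detected in no cell of the 4 groups (0 of 3 genes).

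Of 14 MLL and partner genes, 7 were higher by more than 1 from iHEC to day 14 and 0 were lower. Wdr5 was higher by 3.07, Mllt1 by 2.11, Ash2l by 1.98 and Men1 by 1.86, while Kmt2a, which codes for MLL itself, was detected in 19 of 65 iHECs, in 4 of 21 cells at day 14, and differed by -0.38. Of 19 Polycomb genes 8 were higher and 0 lower. Ezh2, the histone H3K27 methyltransferase, was higher by 3.27, Eed by 2.54, Ring1 by 2.24 and Phc2 by 2.04. Ezh2 was detected in 24 of 65 iHECs but 20 of 21 cells at day 14. Both lists lie near the 48.03% of rows with over 30 cells above 1 TPM that were also higher, so their count is near that background. Kdm6b, an H3K27 demethylase detected in 65 of 65 iHECs, differed by -1.89 at day 14 and was still detected in 20 of 21 cells.

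From day 17 to day 21, 5 of the 14 MLL and partner genes and 8 of the 19 Polycomb genes were lower by more than 1, compared with 38.5% of the rows with over 30 cells above 1 TPM. Men1 differed by -2.56 and Cbx2 by -2.60. Day-21 cells also differed widely in mast cell markers, and the part of this mixture in the lower values was not tested. No Hox gene other than Hoxa9 was above 0 TPM in any day-21 cell, and a link between Hox genes and these regulators was not tested.

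Genes beside the clusters differed in both directions. From iHEC to day 14, 2 of 9 were higher and 1 lower by more than 1, compared with 20.6% and 5.37% of all rows. Skap1, which flanks HoxB, was detected in 11 of 65 iHECs, 0 of 21 cells at day 14, 3 of 18 at day 17 and 14 of 56 at day 21. Its difference from iHEC to day 14 was -0.99, while those of Hoxb2 to Hoxb8 ranged from -4.38 (Hoxb5) to -0.90 (Hoxb7). Evx1, beside HoxA, was detected in 6 of 65 iHECs, 0 of 21 cells at day 14, 2 of 18 at day 17 and 0 of 56 at day 21. Skap2, which flanks HoxA, was detected in 57 of 65 iHECs, in all 21 cells at day 14, and differed by -2.27 from day 17 to day 21. Beside HoxD, Mtx2 and Lnpk were higher by 1.04 and 1.09 from iHEC to day 14. Calcoco1, beside HoxC, differed by -1.43. Of 9 non-coding genes within the clusters that had a row, 7 were above 1 TPM in no iHEC and all 9 in no iHPC, and the table is of polyadenylated RNA. Hoxd3os1 and Mir10a, a miRNA gene between Hoxb4 and Hoxb5, were found in 1 iHEC each.

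Genes known as targets of Hoxa9 in blood cells were taken as a list of 10. From iHEC to day 14, 6 of them were higher by more than 1 and 0 were lower, compared with 20.6% of all rows and 48.03% of rows with over 30 cells above 1 TPM that were higher. Myb, a factor of progenitor growth that is also among the blood markers, was higher by 5.004, Flt3, a cytokine receptor, by 4.38, Cdk6, a cell cycle kinase, by 3.82 and Pim1, a survival kinase, by 2.23. Hoxa9 differed by 0.93 over the same interval. Meis1, at once a partner and a target, differed by 0.44. From day 14 to day 17, 4 were higher and 1, Lmo2, was lower (-2.68), compared with 7.01% of all rows higher and 1.99% lower. The all-row shares include rows seldom above 1 TPM, and the share among rows with over 30 such cells is not reported for this interval. From day 17 to day 21, 0 were higher and 5 were lower, compared with 1.17% and 16.8% of all rows and, among rows with over 30 cells above 1 TPM, 38.5% lower. The 5 were Lmo2 (-2.68), Flt3 (-2.02), Sox4 (-1.94), Pim1 (-1.73) and Cdk6 (-1.53). Endothelial markers were lower by more than 1 in 6 of 6 and blood markers higher in 5 of 5 from iHEC to day 14, and their part in these list counts was not tested. Mast cell markers were higher in 4 of 6 from day 17 to day 21, and their part was not tested either.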

How the data were processed

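Single cells were sorted from C57BL/6 stem cell cultures, and polyadenylated RNA was amplified with the Discover-sc WTA Kit V2, checked by qPCR of B2m and Gapdh and converted to libraries by TruePrep V2 chemistry. Per the submitters' processing notes, reads were aligned to mm10 with HISAT2 2.1.0 and quantified with StringTie 1.3.4, with SAMtools 0.1.19 and bcl2fastq also named. The authors deposited TPM values for 23420 rows and 160 cells in 1 table, which sum to 988686 to 999108 in a cell. The annotation and strand setting are not given in the sources used here.

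Values were analyzed as log2(TPM + 1), with detection above 1 TPM. Shares carry exact Clopper-Pearson 95% intervals, and a share of 0 carries a limit of 3 cells. Differences are later minus earlier group over all rows, with a size rule of 1. No cell was left out and 0 columns were unused; no 2 cells had identical values. Depth per cell is unknown and doublets were not called, as every library was labelled as 1 sorted cell.

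The Hox genes and the lists were chosen with earlier results of these data known. Hox genes above 1 TPM in at least 25% of the cells of a group, and Hoxa5, Hoxa7, Hoxa9, Hoxa10, Hoxb4 and Hoxb5, are described with values, the others by counts and ranges. Of each list up to 4 genes past the size rule with the largest difference are named, and Meis1, Meis2, Kmt2a, Skap1, Evx1, the fifth target gene lower at day 21 and the genes found in 6 iHPCs were named after their values were seen. Some genes that are counted are not reported by name here. Of 115 list genes 107 had a row, 7 of them under a synonym. Steps were tested on simulated data. Positions and promoters are from RefSeq (GRCm38.p6), the assembly that mm10 names, with strands from GENCODE. Python 3.11.15, pandas 2.3.3, numpy 2.4.6, scipy 1.17.1 and matplotlib 3.10.9 were used.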

Additional observations from a re-analysis of the deposited data

How the results depend on the processing

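No paired analysis was possible because the shared numbers in the labels only name cells and no result comes from a test. Of 192 recomputed values of the main results, 156 stayed within the spread between cells, the interval, 1.5 times the count or, for rho, 0.1. Hox genes above the threshold in any cell numbered 5 at day 14 with detection above 0 TPM and 3 at day 17 above 10 TPM. The log2 sum of HoxB was lower from iHEC to day 14 under every alternative that recomputed it, but the number of Hox genes lower by more than 1 varied. It was 8 with only cells of at least 4000 genes, 10 with a pseudocount of 0.1 and 2 with a pseudocount of 10. Among rows above 1 TPM in more than 30 cells it was 3, and Hoxb4 and Hoxb5 pass that filter through iHECs alone. With a pseudocount of 0.1, 1 Hox gene was higher at day 14, 3 were higher at day 17 and 2 were lower at day 21. With only cells of at least 4000 genes 0 were higher at day 17. Without the 3 libraries that went against their label, an alternative chosen after seeing the data, 1 was higher at day 14. Shares of all rows past the size rule under these settings are not reported here, so the counts have no background beside them. The log2 sum of HoxB differed by -8.55 with a pseudocount of 0.1 and by -3.37 with one of 10. Hoxa9 minus its neighbors was 7.98 for Hoxa10 in iHECs with a pseudocount of 0.1. In iHPCs it was the same for Hoxa5, Hoxa7 and Hoxa10, at 9.43, 10.8 and 10.4 in the order of days with a pseudocount of 0.1 and 3.45, 4.45 and 3.94 with one of 10. With Hoxa9 kept, the mean number of Hox genes per cell was 1.10 at day 14 and 1 at day 21, and the log2 sum of HoxA differed by 0.31 from iHEC to day 14, the reverse of its value without Hoxa9. Pearson's r of log2 Hoxa9 with Runx1 was 0.76 at day 14. The pseudocount and the kept Hoxa9 shift values by construction, and for the other alternatives the cause was not tested. Size factors kept each main result within these limits. With 1 sample in a group and no read counts, the spread between cultures and the depth behind a value of 0 are unknown.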
